A study of Mus musculus with 16 samples.

Results

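The genes described here are *Atf4*, its regulators and targets, and the cytosolic aminoacyl-tRNA synthetases, 36 genes chosen by symbol out of the 30386 genes of the deposited expression table. They comprise 16 genes of the ATF4 branch and 20 synthetases. All 36 symbols were found in the table, and all 36 passed the filter on low values, more than 1 CPM (reads of a gene scaled to a fixed sample total) in at least 4 of the 16 samples, which left 12533 genes for testing.

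The study asked what overexpression of *Dbx2*, a homeobox transcription factor, changes in the transcriptome of neural stem/progenitor cells (NSPCs) of the adult mouse subventricular zone (SVZ). It compared 8 samples of *Dbx2*-NSPCs, which carry a constitutive *Dbx2* transgene, with 8 samples of *GFP*-NSPCs, which carry a control *GFP* transgene. Both groups derive from SVZ cells of C57BL/6 J/Babr mice aged 3 months, nucleofected with pTP6 plasmids, selected and kept in puromycin, bulk-cultured for several passages, and grown as non-adherent cultures with EGF and FGF2. RNA was sequenced from the 3′ end of transcripts with the QuantSeq kit. The lines came from 2 independent derivations, so the controls share the drug, the growth factors and the long culture with the *Dbx2*-NSPCs, and the samples are repeated cultures of few lines rather than separate animals. The p-values therefore measure the spread between cultures. The labels do not say which sample belongs to which line. In both groups the samples carry replicate numbers from 1 to 8, and earlier results of these data showed that those numbered 1 to 4 lie apart from those numbered 5 to 8, so values are also given within each of these 2 sets.

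Sequencing depth ran from 1803928 to 3293285 reads per sample, and the floor below which a level was not told apart from 0, set at 3 reads, amounted to 0.911 to 1.66 CPM, which covers counting error only. *Dbx2* itself ranged from 30.7 to 171 CPM in *GFP*-NSPCs, against 114 to 232 CPM in *Dbx2*-NSPCs (log2 fold change 1.26, SE 0.32, limma adjusted p = 0.00978). The groups overlapped in *Dbx2* because the *GFP*-NSPCs numbered 1 to 4 already held 89.3 to 171 CPM. Within numbers 1 to 4 the log2 fold change of *Dbx2* was 0.54 (adjusted p = 0.0891) and within numbers 5 to 8 it was 1.99 (5.67e-08). Reads of these libraries fall near the polyadenylation site, and whether transcripts of the transgene share that stretch with the endogenous gene is not given in the sources used here. Of 9 NSPC markers 0 rose and 3 fell, *Pax6*, *Egfr* and *Fabp7*, and their summed level went from 6772 to 7412 CPM in *GFP*-NSPCs to 5783 to 6822 CPM with *Dbx2*. Of 6 astrocyte markers, *Gfap* rose from a mean of 5.77 to 42.6 CPM, and 2 fell, *Aldh1l1* and *Slc1a3*. Of 6 neuronal markers 5 were tested and 1, *Map2*, was called over all samples, lower in *Dbx2*-NSPCs, while *Stmn2* was at 0 in all samples. *Dcx* and *Rbfox3*, with group means of 2.14 to 5.45 CPM, moved in opposite directions in the 2 sets, with log2 fold changes of -2.87 and -1.96 among the samples numbered 1 to 4 against 3.02 and 2.90 among those numbered 5 to 8 (adjusted p of the difference in limma 3.26e-07 and 3.9e-06). The log2 fold change of *Nes* (0.03 and -0.65, adjusted p of the difference 0.00488) and of *Slc1a2* (-0.31 and 1.19, 2.67e-06) also differed between the sets. These 4 are all of the 27 tested markers that did, and were named after their values were seen. The summed levels of the other lists were at most 44.9 CPM in any sample (ependyma 10.3 to 25.8 and 21.9 to 44.9, endothelium 0.67 to 7.85 and 4.23 to 18.6, oligodendrocytes 3.68 to 8.87 and 7.06 to 15.3, microglia 0 to 1.84 and 0 to 1.96 CPM in *GFP*- and *Dbx2*-NSPCs), with *Cdh5*, *Cldn5*, *Mog*, *Aif1*, *Tmem119* and *Tmem212* at 0; 2 of 3 tested ependymal, 1 of 2 endothelial and 1 of 2 oligodendrocyte markers rose. The part of these marker shifts in the results below was not tested, and in bulk samples fewer cells of a type and less RNA per cell cannot be told apart.

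ATF4 is the main transcription factor of the integrated stress response. When a kinase such as GCN2, which senses uncharged tRNA, phosphorylates the translation factor eIF2, general translation slows while the *Atf4* mRNA is translated more, so that ATF4 protein can change without a change in its mRNA. The protein binds, with a C/EBP partner, composite elements in genes that import and make amino acids, feed the mitochondrial folate cycle and charge tRNAs, and in feedback genes such as *Ddit3*, *Trib3* and *Chac1*.

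The composite element, written here as TGATGNAA on either strand, was searched in the RefSeq promoter windows of GRCm38.p6, which run from 250 bases before to 50 bases after a gene's start. Of the 36 members 28 had a window, and 9 of these (32.1%) held the element: *Slc7a11*, *Asns*, *Chac1*, *Trib3*, *Aars*, *Gars*, *Iars*, *Tars* and *Yars*. By comparison, 4.51% of the 27025 genes with a window held it. *Slc7a11* and *Aars* held the element 2 times, and 0.0851% of all genes held it 2 or more times. The stretches below are upstream of the RefSeq start, written 5′ to 3′ on the strand of the gene with the element in capitals, and apart from the last 2 are shown because they hold the element. GENCODE M21 places the starts of some of these genes further upstream, so that the stretch of *Asns* lies wholly, and 7 bases of that of *Tars*, in the 5′ untranslated part of the GENCODE gene. *Slc7a11* (chr3:50443633-50443699, minus strand) comes first, since it gave the largest change of all members and has 2 elements facing each other. It is followed by *Asns* (chr6:7693215-7693242, minus), *Chac1* (chr2:119351029-119351076, plus), *Gars* (chr6:55037951-55037998, plus) and *Tars* (chr15:11399659-11399693, minus). The last 2, *Shmt2* (chr10:127522445-127522564, minus) and *Sesn2* (chr4:132510502-132510621, minus), are called members with none in their windows and show 120 bases, before the RefSeq start of *Shmt2* and before the GENCODE start of *Sesn2*.
Slc7a11: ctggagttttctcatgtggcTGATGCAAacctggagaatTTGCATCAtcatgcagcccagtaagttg
Asns: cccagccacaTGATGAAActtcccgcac
Chac1: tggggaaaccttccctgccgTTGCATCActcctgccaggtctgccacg
Gars: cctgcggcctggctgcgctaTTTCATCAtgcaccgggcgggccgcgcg
Tars: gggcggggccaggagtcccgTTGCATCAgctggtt
Shmt2: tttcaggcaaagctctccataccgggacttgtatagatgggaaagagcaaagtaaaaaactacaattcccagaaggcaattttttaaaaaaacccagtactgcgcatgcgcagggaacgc
Sesn2: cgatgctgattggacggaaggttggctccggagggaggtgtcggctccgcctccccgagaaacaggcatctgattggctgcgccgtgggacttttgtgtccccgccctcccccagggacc

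The members did not move as 1 group. In *Dbx2*-NSPCs, 6 of the 36 fell (*Slc7a11*, *Shmt2*, *Ddit3*, *Slc7a1*, *Iars* and *Kars*) and 2 rose (*Sesn2* and *Slc3a2*), where a call is an adjusted p under 0.05 in limma on log2(CPM + 0.5) over all tested genes. These 8 are 22.2% of the members, beside 15.8% of all tested genes called, of which 8.03% were higher and 7.78% lower. The log2 fold change, on a scale that understates the change of low genes, was below 0 in 28 members, with a median of -0.11 over the members and -0.02 over all tested genes. Blocking on the replicate number gave 11 called members (21.7% of all genes), the set of numbers as a covariate 13 (24.2%), edgeR on the whole reads recovered from the CPM 8 (15.4%), DESeq2 on these reads 10 (17.5%), and limma without its intensity trend 5 (15%). The count of 8 was 4 without *Dbx2*-NSPC replicate 2 (14.2% of all genes), 5 without *GFP*-NSPC replicate 8 (14.5%) and 5 without *Dbx2*-NSPC replicate 6 (13.6%).

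**Figure D1:**
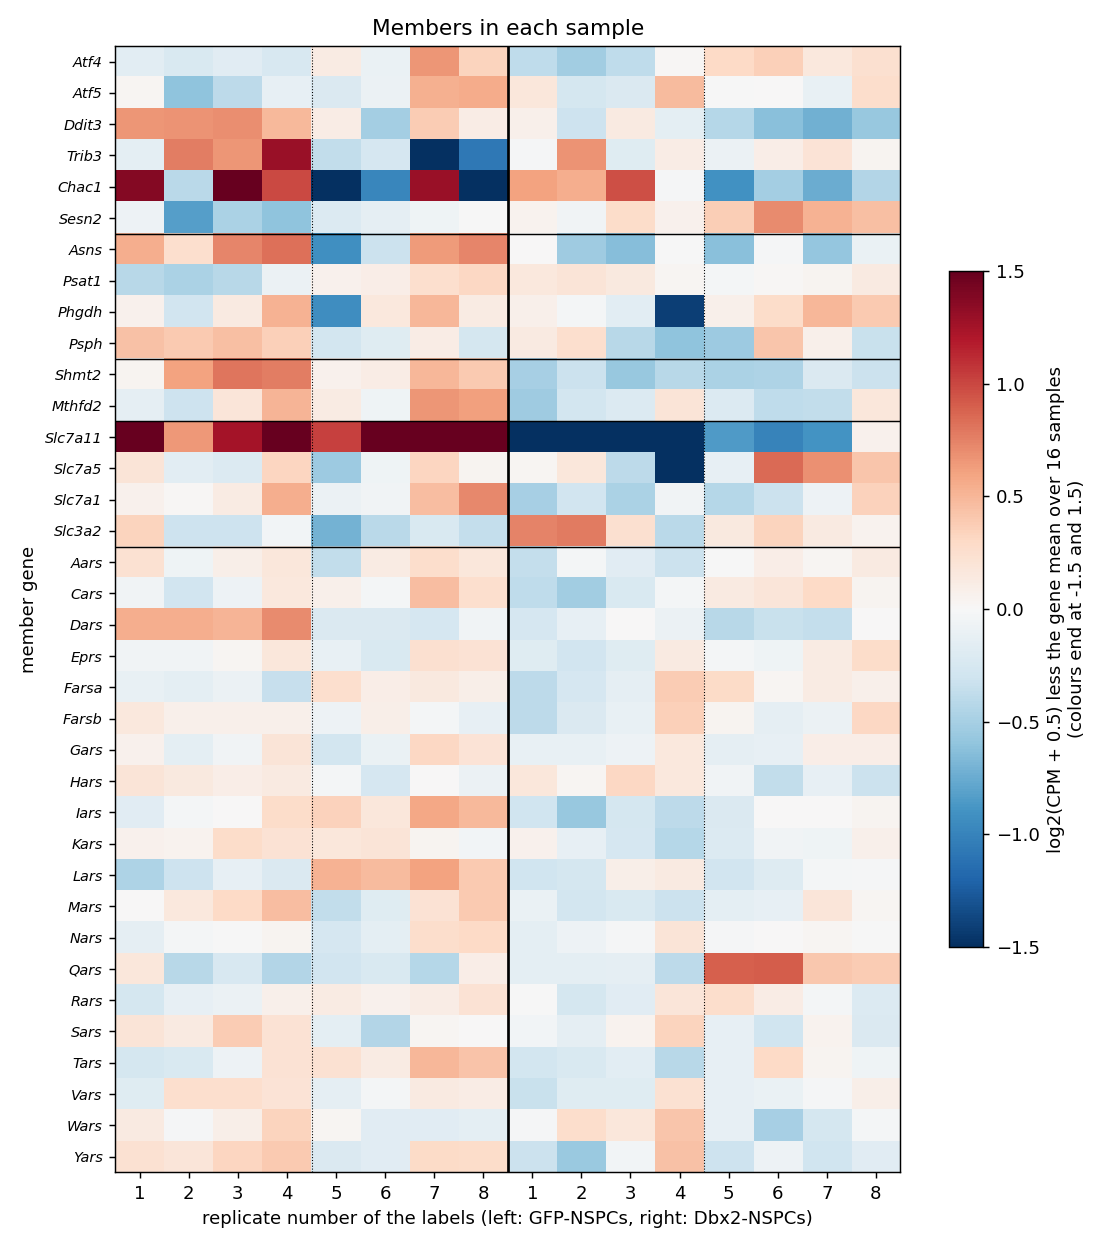
Level of the 36 members (rows, in the order of their roles) in the 16 samples (columns, by replicate number; *GFP*-NSPCs left, *Dbx2*-NSPCs right), as log2(CPM + 0.5) less the gene's mean over all samples, with colours ending at 1.5 in either direction. The *Slc7a11* row shows the strongest turn from red in *GFP*-NSPCs to blue in *Dbx2*-NSPCs, and rows such as *Dars*, *Lars* and *Qars* also change at the dotted lines between numbers 4 and 5.

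Among the regulators and feedback genes, *Atf4* itself gave no call. Its level ran from 389 to 729 CPM in *GFP*-NSPCs (median 421) and from 322 to 591 CPM in *Dbx2*-NSPCs (median 491). The groups overlapped over most of their range (log2 fold change -0.05, SE 0.15, limma adjusted p = 0.862). *Atf5*, a related bZIP factor, was at 41.6 to 93.4 CPM (median 58.7) and 52.8 to 88.3 CPM (median 63.5), again overlapping (0.08, SE 0.16, adjusted p = 0.784). Its gene overlaps *Nup62* on the opposite strand, and the strand used in counting is not given in the sources used here.

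*Ddit3* (chromosome 10, 127290774 to 127296288, plus strand in GENCODE M21 on GRCm38) encodes CHOP, the factor that links prolonged stress to cell death. It lay between 23.6 and 55.1 CPM in *GFP*-NSPCs (median 46.0) and between 20.3 and 37.1 CPM in *Dbx2*-NSPCs (median 26.2). It was lower in the *Dbx2*-NSPC sample in 8 of 8 same-numbered comparisons. The groups overlapped through *GFP*-NSPC replicates 5, 6 and 8, at 36.6, 23.6 and 36.6 CPM, and within numbers 5 to 8 through replicate 6. The fall was 0.65 on the log2 scale (log2 fold change -0.65, SE 0.17, limma adjusted p = 0.0144), with -0.69 in the samples numbered 1 to 4 and -0.61 in those numbered 5 to 8. The 3′ ends of *Ddit3* and *Mars* face each other and overlap by 68 bases, so their reads may be mixed if strand was not used. *Mars*, the methionyl-tRNA synthetase, had a log2 fold change of -0.25 (SE 0.11, adjusted p = 0.156).

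*Sesn2* (chromosome 4, 132492032 to 132510501, minus strand), which encodes sestrin 2, a leucine sensor that restrains mTORC1 and is a target of both ATF4 and p53, went the other way. The *GFP*-NSPCs held 42.0 to 74.9 CPM (median 66.6) and the *Dbx2*-NSPCs 71.9 to 122 CPM (median 93.8). Only the lowest *Dbx2*-NSPC sample lay below the highest *GFP*-NSPC sample, and within each set of numbers the groups did not overlap, as was true of 19.6% of all genes in numbers 1 to 4 and 24.8% in numbers 5 to 8. Its log2 fold change was 0.60 (SE 0.13, limma adjusted p = 0.00457), with 0.58 and 0.61 in the 2 sets.

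*Trib3*, a pseudokinase that inhibits ATF4, and *Chac1*, which degrades glutathione, were close to the floor. *Trib3* had 1 to 19 reads per *GFP*-NSPC sample and 6 to 13 per *Dbx2*-NSPC sample, 60 in all in each group. *Chac1* had 0 to 13 and 1 to 8 reads, 43 and 29 in all. The ratio of the summed reads scaled to depth, *GFP* over *Dbx2*, was 1.08 for *Trib3* (95% exact counting interval 0.741 to 1.57) and 1.598 for *Chac1* (0.975 to 2.65), and neither gene was called (limma adjusted p = 0.745 and 0.901). Such intervals, here and below, cover counting error in the summed reads only and leave out the spread between cultures. The ratio for *Trib3* was 1.57 (0.985 to 2.52) in numbers 1 to 4 but 0.479 (0.221 to 0.978) in numbers 5 to 8. In numbers 5 to 8 its groups did not overlap in CPM, as was true of 24.8% of all tested genes. The difference between the sets did not pass the limma test (adjusted p = 0.117).

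Of the 4 enzymes of asparagine and serine synthesis, 0 were called in limma over all samples, with 1, *Asns*, at an unadjusted p under 0.05, which edgeR and DESeq2 on the recovered reads called as lower. Asparagine synthetase, encoded by *Asns*, is a classical reporter of the amino acid response. Levels spread from 18.8 to 64.7 CPM in *GFP*-NSPCs (median 54.7) but only from 23.1 to 36.3 CPM in *Dbx2*-NSPCs (median 29.3). *GFP*-NSPC replicates 5 and 6, at 18.8 and 28.8 CPM, lay below and within the range of the *Dbx2*-NSPCs, whereas the other 6 lay above all of them. The log2 fold change was -0.62 (SE 0.22, limma adjusted p = 0.0616). With the replicate block the limma adjusted p was 0.0264, and with the number set as a covariate 0.0289. The log2 fold change differed in size between the sets. It was -0.88 in numbers 1 to 4 and -0.36 in numbers 5 to 8.

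The serine pathway was uneven. *Psat1*, the phosphoserine aminotransferase, was at 175 to 301 CPM in *GFP*-NSPCs (median 241) and in the narrower range of 238 to 279 CPM in *Dbx2*-NSPCs (median 258), with a log2 fold change of 0.17 (SE 0.11, limma adjusted p = 0.319). *Phgdh*, the first enzyme of the pathway, was at 12.2 to 34.3 CPM (median 26.0) and 8.61 to 33.9 CPM (median 25.02), where *GFP*-NSPC replicate 5 and *Dbx2*-NSPC replicate 4 were the low samples (-0.07, SE 0.24, adjusted p = 0.883). *Psph*, the last enzyme, was at 20.5 to 34.2 and 16.2 to 33.2 CPM (-0.26, SE 0.17, adjusted p = 0.347).

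In mitochondrial one-carbon metabolism, which takes the product of the serine pathway, *Shmt2* fell. This gene (chromosome 10, 127517123 to 127522444, minus strand) encodes the serine hydroxymethyltransferase that passes a carbon of serine to folate. It held 100.3 to 170.1 CPM in *GFP*-NSPCs (median 133), as against 65.5 to 84.0 CPM in *Dbx2*-NSPCs (median 71.5). The groups did not overlap, one of 2 such members beside 3.41% of all tested genes. The means were 132 ± 28.2 and 73.4 ± 6.01 CPM (SD, 8 samples each), and the log2 fold change was -0.82 (SE 0.11, limma adjusted p = 5.41e-05), being -1.004 in numbers 1 to 4 alone and -0.63 in numbers 5 to 8 alone. *Mthfd2*, which acts on the next folate intermediate, ranged from 75.8 to 150.3 CPM (median 105) and from 65.2 to 108 CPM (median 79.8). The groups overlapped in it, and it did not pass the main test (log2 fold change -0.40, SE 0.15, limma adjusted p = 0.0728). It passed in limma with the replicate block (adjusted p = 0.0115) and with the number set as a covariate (0.0399). It did not pass in edgeR (0.0843) or DESeq2 (0.0641) on the recovered reads.

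The 4 amino acid transporter genes split. *Slc7a11* (chromosome 3, 49892526 to 50443614, minus strand) encodes xCT, which imports cystine in exchange for glutamate and so feeds glutathione synthesis. It was at 8.82 to 25.5 CPM in *GFP*-NSPCs (median 16.7) and at 0.61 to 5.74 CPM in *Dbx2*-NSPCs (median 1.88). All *Dbx2*-NSPC samples lay below all *GFP*-NSPC samples, and within *Dbx2*-NSPCs those numbered 1 to 4 were the lowest, at 0.61 to 1.28 CPM. The log2 fold change was -2.87 (SE 0.34, limma adjusted p = 8.8e-06), -3.52 and -2.23 in the sets numbered 1 to 4 and 5 to 8, and their difference did not pass the test (adjusted p = 0.0811). These values rest on 358 reads in *GFP*-NSPCs and 49 in *Dbx2*-NSPCs. Scaled to depth, *GFP*-NSPCs had 7.87 times the reads (95% exact counting interval 5.83 to 10.8), and 3 of the *Dbx2*-NSPC samples, all numbered 1 to 4, had at most 3 reads, so the ratio within numbers 1 to 4, 18.3, has an interval of 9.72 to 38.9.

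xCT reaches the membrane with the heavy chain CD98, encoded by *Slc3a2* (chromosome 19, 8706882 to 8723369, minus strand), which also serves LAT1, the leucine importer encoded by *Slc7a5*. *Slc3a2* rose, from 129 to 265 CPM (median 170) in *GFP*-NSPCs to 159 to 363 CPM (median 242) in *Dbx2*-NSPCs. *Dbx2*-NSPC replicate 4 was the low sample and the only one below its same-numbered *GFP*-NSPC sample, and the groups overlapped (log2 fold change 0.51, SE 0.16, limma adjusted p = 0.0308). *Slc7a5* had no call, at 49.3 to 90.6 CPM in *GFP*-NSPCs (median 71.7) and 24.8 to 130.2 CPM in *Dbx2*-NSPCs (median 77.7), with -0.46 in numbers 1 to 4 and 0.52 in numbers 5 to 8 (0.03, SE 0.25, adjusted p = 0.962). The heavy chain and the 2 light chains among the members, xCT and LAT1, thus had log2 fold changes of 0.51, -2.87 and 0.03 in the same samples.

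*Slc7a1* (chromosome 5, 148327410 to 148399904, minus strand), which encodes the arginine and lysine importer CAT1, fell. Its range was 75.9 to 133 CPM in *GFP*-NSPCs (median 86.1) and 56.8 to 102 CPM in *Dbx2*-NSPCs (median 65.2). It was lower in 8 of 8 same-numbered comparisons, and the groups overlapped through *Dbx2*-NSPC replicates 8, 4 and 7 (log2 fold change -0.45, SE 0.14, limma adjusted p = 0.0331). The calls of *Slc7a1* and *Slc3a2* were near the threshold. That of *Slc7a1* was lost on leaving out any 1 of *GFP*-NSPC replicates 4, 7 and 8 or *Dbx2*-NSPC replicates 1, 2, 3, 5 and 6 (adjusted p 0.0536 to 0.0676, limma). That of *Slc3a2* was lost without *GFP*-NSPC replicates 3, 5, 6 or 8 or *Dbx2*-NSPC replicates 1, 2 or 6 (adjusted p 0.0501 to 0.0623).

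**Figure D2:**
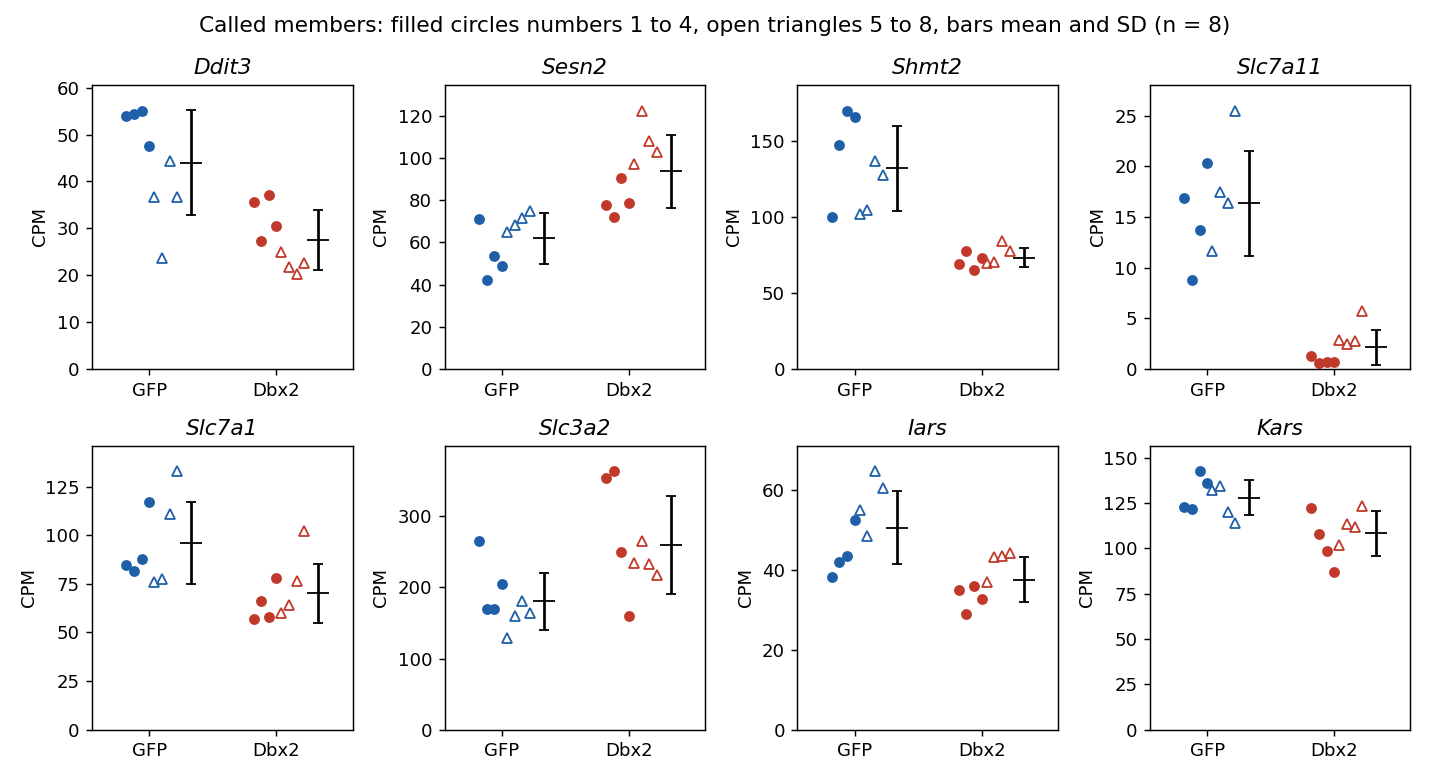
CPM of the 8 called members in each sample of *GFP*-NSPCs (blue) and *Dbx2*-NSPCs (red), with filled circles for numbers 1 to 4, open triangles for numbers 5 to 8, and bars for the mean and SD (n = 8). The groups are apart in *Slc7a11* and *Shmt2* and overlap in the other 6 genes.

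The 20 aminoacyl-tRNA synthetases, which load each tRNA with its amino acid, moved little. In limma 2 fell and 0 rose, beside 15.8% of all tested genes called, and 6 had an unadjusted p under 0.05, as had 3654 of the 12533 tested genes. The log2 fold change was below 0 in 18 of 20, beside 52.7% of all tested genes. Within numbers 1 to 4 it was below 0 in 13 of 20 and within numbers 5 to 8 in 16 of 20. Among the 12533 tested genes 6751 and 6420 were below 0 in these sets. The sign differed between the sets in 9 of the 20, as in 4735 of the 12533 tested genes. Over all samples the value lay close to 0 in several of the 18, such as -0.01 in *Nars* and -0.02 in *Wars*. The log2 fold change over all samples was within 0.25 of 0 in 16 synthetases, with a median of -0.11. Among all tested genes 6649 of 12533 were within 0.25 of 0. The counts in edgeR and DESeq2 were 1 and 3 synthetases, beside 15.4% and 17.5% of all tested genes.

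*Iars* (chromosome 13, 49682100 to 49734267, plus strand), for isoleucine, was at 38.3 to 64.6 CPM in *GFP*-NSPCs (median 50.4) and 28.8 to 44.2 CPM in *Dbx2*-NSPCs (median 36.4). Within each set of numbers all *Dbx2*-NSPC samples lay below all *GFP*-NSPC samples. Groups did not overlap in 19.6% of all tested genes in numbers 1 to 4 and in 24.8% in numbers 5 to 8. Limma in numbers 1 to 4 alone gave *Iars* an adjusted p of 0.077, and in numbers 5 to 8 alone 0.0172. The whole groups overlapped because numbers 5 to 8 were higher in both (log2 fold change -0.42, SE 0.12, limma adjusted p = 0.025). The call was lost without *GFP*-NSPC replicate 7 or 8 or *Dbx2*-NSPC replicate 2 (adjusted p 0.0504 to 0.0527). *Kars* (chromosome 8, 111993443 to 112011323, minus strand), for lysine, was at 114 to 142 CPM (median 128) and 86.8 to 124 CPM (median 110). Its groups overlapped, and its log2 fold change was -0.25 (SE 0.08, limma adjusted p = 0.0445). With the replicate block the call was lost (adjusted p = 0.0648), as it was on leaving out any 1 of replicates 2 to 7 of either group (0.051 to 0.086). It was also lost in edgeR (0.0713), and was kept with the number set as a covariate (limma adjusted p = 0.0271) and in DESeq2 (0.0459).

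Just outside the threshold were *Dars*, for aspartate, *Yars*, for tyrosine, and *Qars*, for glutamine. *Dars* was at 47.8 to 93.6 CPM in *GFP*-NSPCs (median 68.3) and 42.6 to 57.1 CPM in *Dbx2*-NSPCs (median 50.02). The wide range in *GFP*-NSPCs came from the samples numbered 1 to 4, all above 81 CPM. The log2 fold change was -0.39 (SE 0.15, limma adjusted p = 0.0813, with the replicate block 0.0245 and with the number set as a covariate 0.00808). *Yars* was at 52.1 to 80.0 CPM and 41.0 to 82.5 CPM (-0.33, SE 0.13, limma adjusted p = 0.0881, with the block 0.0397 and with the set covariate 0.0477). *Qars*, one of the 2 synthetases with a positive value, was at 29.3 to 45.1 CPM and 30.5 to 75.5 CPM (0.44, SE 0.18, adjusted p = 0.106). It was called with the set of numbers as a covariate (limma adjusted p = 0.0316) and in DESeq2 (0.0389).

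For the remaining 15, which include the abundant *Eprs* (333 to 459 and 319 to 472 CPM), *Farsa*, *Nars* and *Sars*, the log2 fold change lay between -0.25 in *Mars* and 0.03 in *Farsa*. *Hars*, whose gene overlaps the mitochondrial *Hars2* on the opposite strand, was at 34.1 to 46.7 CPM and 31.4 to 50.5 CPM. The 2 subunits of the phenylalanine enzyme, *Farsa* and *Farsb*, had 0.03 (SE 0.11) and -0.06 (SE 0.10). Members with the element in their promoter window had a median of -0.23, with 8 of 9 below 0 and 2 called (*Slc7a11* and *Iars*). The 19 with a window but without the element had a median of -0.07, with 13 below 0 and 6 called. Of all tested genes 52.7% were below 0 and 15.8% were called. Whether the element bears on the change was not tested.

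**Figure D3:**
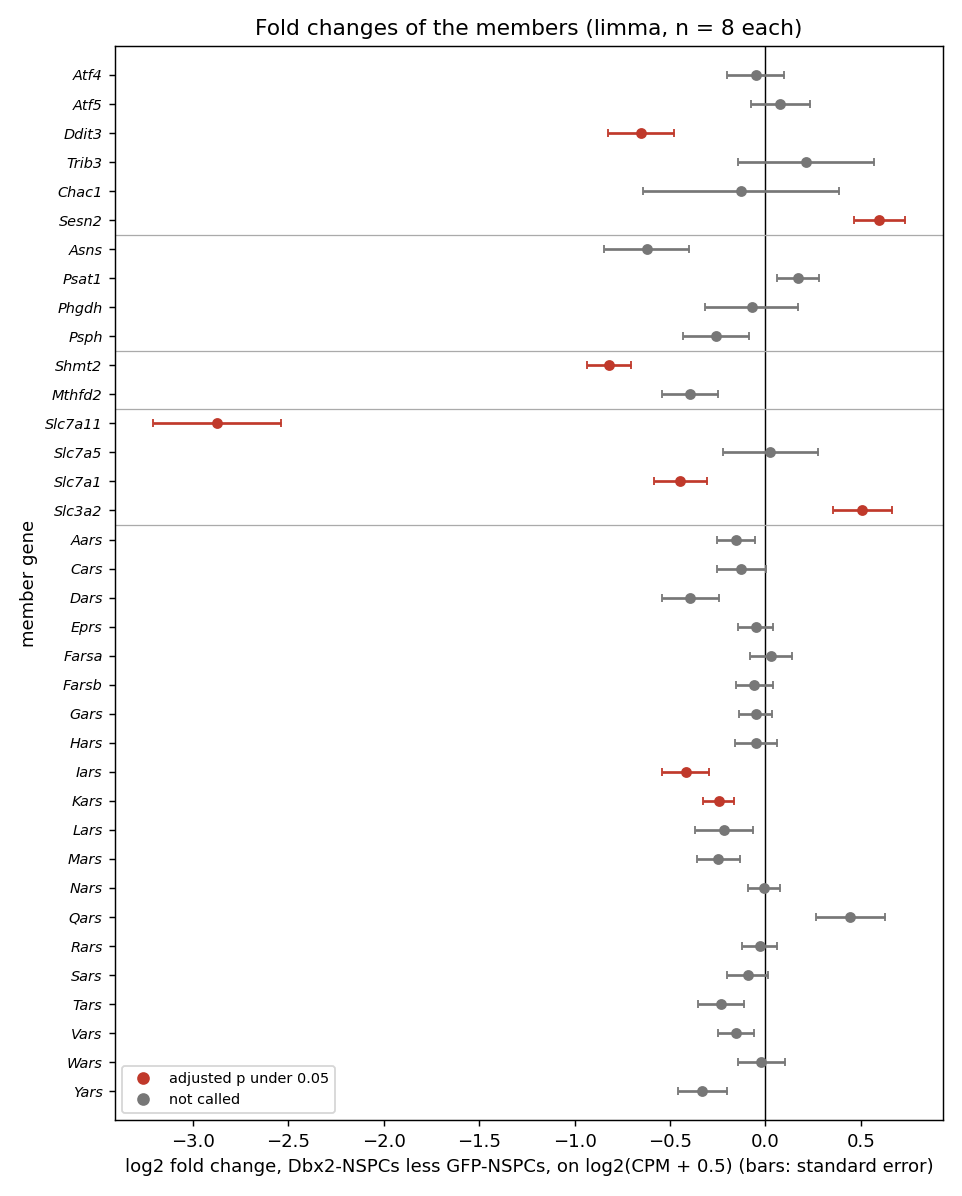
Log2 fold change of each member (*Dbx2*-NSPCs less *GFP*-NSPCs, n = 8 each, bars are the standard error), by role from regulators at the top to synthetases at the bottom, with called members in red. *Slc7a11* stands far to the left at -2.87, and the synthetases gather just left of 0.

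Within the samples numbered 1 to 4 alone 9 members were called (15.6% of all genes), and within those numbered 5 to 8 alone also 9 (23.2%). The sign differed between the sets in 17 of the 36 members, as it did in 4735 of the 12533 tested genes. A limma test of the difference itself found 4 members, beside 9.44% of all genes. *Psat1* was higher in *Dbx2*-NSPCs in numbers 1 to 4, at 248 to 279 against 175 to 229 CPM, and not in numbers 5 to 8, at 238 to 267 against 254 to 301 CPM (0.48 and -0.14, adjusted p of the difference = 0.00231). *Dars* was lower in numbers 1 to 4, at 47.8 to 57.0 against 81.5 to 93.6 CPM, while numbers 5 to 8 overlapped (-0.70 and -0.09, adjusted p = 0.0187).

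*Lars*, for leucine, and *Qars* changed in the other set. *Lars* was at 102 to 123 CPM in *Dbx2*-NSPCs and 163 to 189 CPM in *GFP*-NSPCs numbered 5 to 8, and overlapped in numbers 1 to 4 (-0.63 against 0.19, adjusted p of the difference = 0.000902). *Qars* was at 52.3 to 75.5 against 29.7 to 43.2 CPM in numbers 5 to 8 and overlapped in numbers 1 to 4 (0.86 against 0.03, adjusted p = 0.0208). In *Psat1*, *Dars* and *Lars* it was the *GFP*-NSPCs whose level differed between the sets without overlap, whereas in *Qars* it was the *Dbx2*-NSPCs. The set cannot be told apart from any line, date or batch that follows the same numbers.

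**Figure D4:**
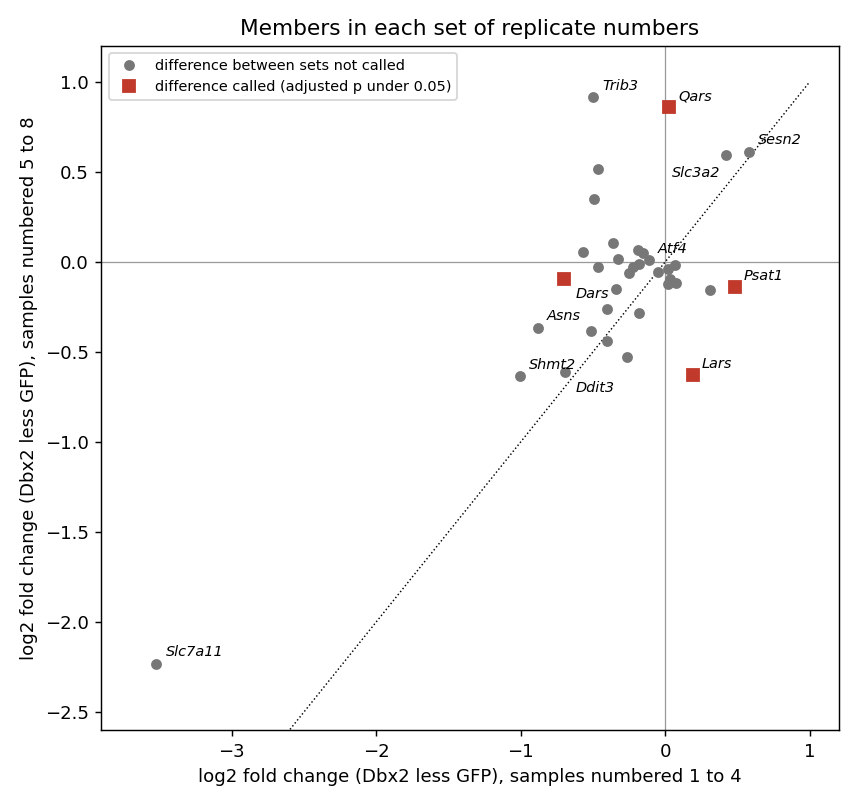
Log2 fold change of the members in the samples numbered 1 to 4 (horizontal) and 5 to 8 (vertical), with a dotted line where both are equal and red squares where the difference between the sets was called. *Slc7a11*, *Shmt2*, *Ddit3*, *Sesn2* and *Slc3a2* keep their sign in both sets, and *Psat1*, *Dars*, *Lars* and *Qars* are the red squares. *Trib3* and *Slc7a11* lie farther off the line without a call of the difference.

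As a mean score per sample, the log2(CPM + 0.5) of the members less that of all tested genes, both the ATF4 branch and the synthetases were lower in *Dbx2*-NSPCs. No test is given for a score, since the members were chosen with results of these data known. For the 16 genes of the ATF4 branch the score fell between 0.827 and 1.56 in *GFP*-NSPCs, with a mean of 1.24 ± 0.252, and between 0.785 and 1.12 with *Dbx2*, with a mean of 0.926 ± 0.117 (SD, 8 samples each). The difference was -0.313, -0.486 within numbers 1 to 4 but -0.141 within numbers 5 to 8, and the *Dbx2*-NSPC sample was lower in 6 of 8 same-numbered comparisons, numbers 5 and 6 being the exceptions. The groups overlapped through *GFP*-NSPC replicates 2, 5 and 6. Without *Slc7a11* the difference was -0.141, and with the median in place of the mean over the members it was -0.0437. The score of the 20 synthetases was 2.43 ± 0.101 and 2.29 ± 0.124, with a difference of -0.139, and the groups overlapped. It was lower in 8 of 8 same-numbered comparisons. Of these, number 6 was nearly level, at 2.295 in *GFP*-NSPCs and 2.294 in *Dbx2*-NSPCs, and number 5 was close, at 2.348 and 2.329.

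**Figure D5:**
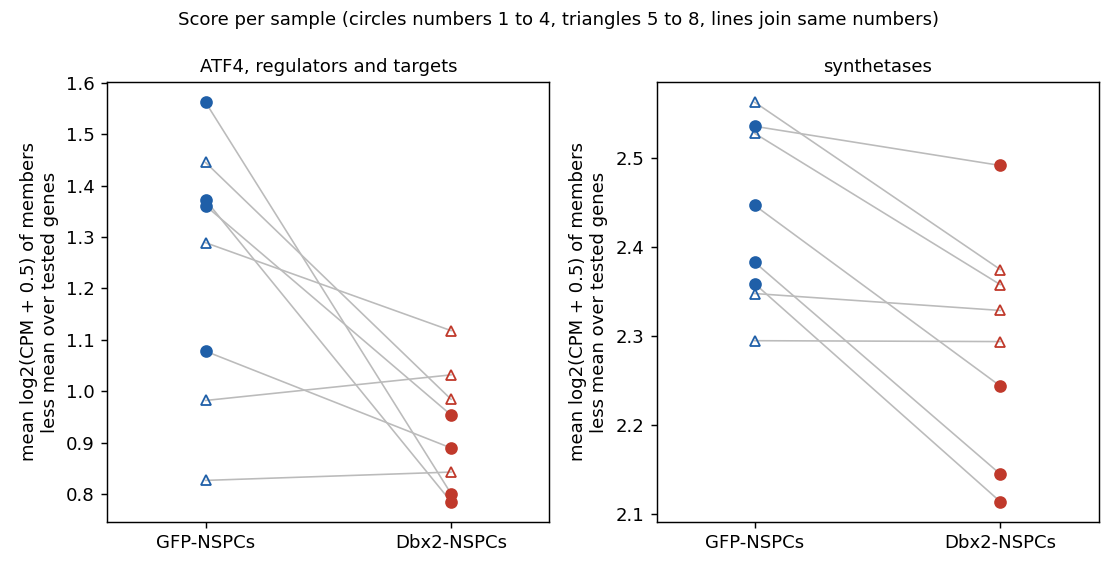
Mean log2(CPM + 0.5) of the ATF4 branch (left) and of the synthetases (right) less the mean over tested genes, for each sample, with lines joining samples of the same number (circles 1 to 4, triangles 5 to 8); the vertical axes do not start at 0. All lines slope down for the synthetases, that of number 6 being nearly level, and 6 of 8 do for the ATF4 branch.

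Other genes of the pathway, 66 tested of 67 listed, gave 2 higher and 4 lower calls, beside 15.8% of all tested genes called. Of the 4 eIF2 kinases only *Eif2ak4*, which encodes GCN2, was called. It was at 8.82 to 23.9 CPM in *GFP*-NSPCs and 3.71 to 10.8 CPM in *Dbx2*-NSPCs. Its log2 fold change was -1.01 (SE 0.25, limma adjusted p = 0.00902), -0.30 and -1.73 in the sets numbered 1 to 4 and 5 to 8, and their difference passed the test (adjusted p = 0.0164). *Eif2ak1* (HRI) had 0.07 (adjusted p = 0.684), *Eif2ak2* (PKR) 0.24 (0.316) and *Eif2ak3* (PERK) 0.10 (0.706). *Eif2b2*, a subunit of the exchange factor that recharges eIF2, rose from 149 ± 22.5 to 211 ± 29.5 CPM (SD, n = 8 each), with a log2 fold change of 0.49 (SE 0.10, limma adjusted p = 0.00239).

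Of 25 tested partners and other targets, 1 rose and 2 fell. *Xpot*, the exporter that carries tRNAs out of the nucleus, did not overlap between the groups, as was true of 3.41% of all tested genes. It was at 60.3 to 89.6 CPM in *GFP*-NSPCs and 21.9 to 50.3 CPM in *Dbx2*-NSPCs (-0.91, SE 0.14, limma adjusted p = 0.00016). *Slc1a4*, a transporter of neutral amino acids that include serine, was at 55.9 to 100.3 and 40.5 to 60.3 CPM (-0.47, SE 0.12, adjusted p = 0.012). *Atf3*, a stress-induced partner, was at 0 to 4.03 and 2.11 to 11.2 CPM, near the floor (1.2, SE 0.40, limma adjusted p = 0.0469). That call was lost in edgeR (adjusted p = 0.0596), with a pseudocount of 0.1 (0.0711), without a filter (0.0752), without the trend (0.0507), in either set alone (0.108 and 0.103), and on leaving out any 1 of *GFP*-NSPC replicates 2 to 7 or *Dbx2*-NSPC replicates 1, 2, 4, 6 and 7 (0.0573 to 0.091). Of 7 further serine and one-carbon enzymes 1 was called, *Gldc* of the glycine cleavage system, which fell from 17.96 ± 3.84 to 10.5 ± 2.03 CPM with no overlap (-0.75, SE 0.16, adjusted p = 0.00316). With the replicate block 2 of the 7 were called, beside 21.7% of all tested genes. The gained gene, named after its values were seen, was *Mthfd1l*, the mitochondrial formate-producing enzyme, at 107 ± 42.5 and 75.5 ± 15.3 CPM (-0.42, SE 0.21, limma adjusted p = 0.2 without and 0.0423 with the block). Its log2 fold change was -0.04 in the first set (numbers 1 to 4) against -0.79 in the other, and the difference passed the test (adjusted p = 0.00913).

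The 17 mitochondrial synthetases gave 0 calls in limma, 0 in edgeR and 1 in DESeq2, beside 15.8%, 15.4% and 17.5% of all tested genes called. In limma 3 had an unadjusted p under 0.05, as had 3654 of the 12533 tested genes. With the number set as a covariate limma and edgeR each called 1, as higher, beside 3034 and 2938 of all tested genes called. The 3 scaffold proteins of the synthetase complex, *Aimp1*, *Aimp2* and *Eef1e1*, gave 0 calls and 0 at an unadjusted p under 0.05 in limma, and 0 calls in edgeR and DESeq2.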

How the data were processed

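Per the labels and the methods of the study, RNA of 16 cultures (100 ng each) was made into QuantSeq 3′ libraries and sequenced single-end. The authors checked reads with FastQC 0.11.8, trimmed them with bbduk and aligned them with STAR 2.5.0a to GRCm38 with Ensembl annotation. The counting tool and its strand setting are not given in the sources used here. The authors deposited CPM for 30386 genes; all samples sum to nearly the same total, so nothing but the depth was scaled, and 100% of values were whole reads within 0.1 read, which were recovered. The authors' model in edgeR 3.36 had the cell line as a covariate, which the labels do not give.

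Samples were grouped by transgene. Of all genes, 12533 exceeded 1 CPM in 4 or more of the 16 samples. Their log2(CPM + 0.5) values entered limma 3.58.1 under R 4.3.3 (lmFit, eBayes with trend, 2-sided), with p-values adjusted by Benjamini-Hochberg over all of them and 0.05 as the threshold. Members and lists were chosen with earlier results of these data known; all members are named, and of the other pathway genes the eIF2 kinases and those called. Replicate numbers come from the sample titles. Residuals of same-numbered samples correlated at 0.152 to 0.303 (mean 0.226). Other numbers of the same set correlated at a mean of 0.199, and numbers of different sets at -0.206. With residuals taken within the sets, the means were 0.0403 for the same number and -0.0136 for other numbers. The correlation thus followed the set more than the number, and pairing by number was not established. The replicate block is given as an alternative beside calls it changes, and same-numbered comparisons are descriptive. Alternatives were pseudocounts of 0.1 and 2, other filters and scalings, no trend, the block, the number set as a covariate or alone, each replicate left out, and count tests of the recovered reads in edgeR 4.0.16 (1928 genes called) or DESeq2 1.42.0 (2197). Scripts were tested on simulated data. Gene positions came from GENCODE M21 and promoter windows from RefSeq; 8 members had no window and were not analysed there.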

Additional observations from a re-analysis of the deposited data

Results flagged for a closer look

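Of the 72 groups of member values and 6 groups of scores, 4 had a sample far from the others, where chance gives about 1 in 20 groups. *Trib3* was 3.95 CPM in *Dbx2*-NSPC replicate 2, with the others at 1.95 to 2.71 CPM. *Slc7a11* was 5.74 CPM in *Dbx2*-NSPC replicate 8, with the others at 0.61 to 2.82 CPM. *Slc7a1* was 102.3 CPM in the same sample, with the others at 56.8 to 77.9 CPM. *Yars* was 82.5 CPM in *Dbx2*-NSPC replicate 4, with the others at 41.0 to 58.9 CPM, and its limma adjusted p without that sample was 0.014.

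The log2 fold change differed between the samples numbered 5 to 8 and those numbered 1 to 4 in 4 members, by -0.62 in *Psat1*, 0.60 in *Dars*, -0.82 in *Lars* and 0.83 in *Qars*. Among the 66 tested pathway genes it differed in 6, by -1.43 in *Eif2ak4*, -2.02 in *Gdf15*, 1.43 in *Cbs*, 1.11 in *Bcat1*, -0.75 in *Mthfd1l* and -0.57 in *Mat2a*, the last 5 named after their values were seen. Among the 27 tested markers it differed in 4, by -0.68 in *Nes*, 1.495 in *Slc1a2*, 5.89 in *Dcx* and 4.86 in *Rbfox3*. These differences were tested in limma as an interaction over all samples, and what sets the numbers apart was not tested.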

How the results depend on the processing

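*Slc7a11*, *Shmt2*, *Ddit3* and *Sesn2* were called with the same sign in every alternative that gave them a value, each replicate left out included; a mean filter of 10 CPM drops *Slc7a11*, *Trib3* and *Chac1*. Over all members, 466 of 501 other settings kept the side of the threshold, 13 lost a call, 22 gained one and 0 reversed a called gene; for members called in neither fit the sign changed in some (32 values). *Slc7a1* and *Slc3a2* lost their calls without the trend (limma adjusted p 0.0525 and 0.054), *Slc7a1* in numbers 5 to 8 alone, *Slc3a2* and *Iars* in numbers 1 to 4 alone, and *Kars* without a filter, under both other scalings, without the trend, in either set alone and in edgeR. Of 576 values with a replicate left out, 30 lost and 13 gained a call. *Asns* was gained without *GFP*-NSPC replicate 5 or 6 (limma adjusted p 0.00403 and 0.0367), *Mthfd2* without *GFP*-NSPC 1 or 2 or *Dbx2*-NSPC 4 or 8 (0.0322 to 0.0488), *Dars* without *GFP*-NSPC 5, 6 or 7 (0.0448 to 0.0498), *Mars* without *GFP*-NSPC 5 (0.0459), *Qars* without *Dbx2*-NSPC 4 (0.0454) and *Yars* without *GFP*-NSPC 5 (0.0486) or *Dbx2*-NSPC 4 (0.014).

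With the number set as a covariate 3034 genes were called (24.2%), 1533 of them lower, and 13 members, 10 of them lower. Numbers 5 to 8 alone gave 1467 lower genes, and edgeR with the set 1572 higher genes. Without the trend 5 members were called (15% of all genes), 1 of them higher. Leaving out a replicate gave 4 to 10 members called, 1 to 3 higher and 3 to 9 lower, and 1684 to 2210 genes. The score difference of the ATF4 branch was -0.0437 with the median over members, against -0.313, and -0.141 without *Slc7a11*, an alternative chosen after seeing the data. The causes were not tested.

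The replicate block called 11 members and 2723 genes; beyond the gain of *Asns*, *Mthfd2*, *Dars* and *Yars* and the loss of *Kars* it changed no other call of a member. Depth limits *Trib3*, *Chac1* and, in *Dbx2*-NSPCs, *Slc7a11*, where 3 samples held 2 reads each.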
